A study of Mus musculus with 34 samples.

Results

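Cadherins and non-clustered protocadherins are adhesion proteins of the cell surface, and 31 of their genes were followed along 3 axes of the mouse brain at 3 days of age. The members were a fixed list of gene symbols, matched through the RefSeq accessions of the array probes, and all 31 were found among the 20145 genes with a named probe. They comprised 5 type I cadherins, 11 type II cadherins, 3 further cadherins (Cdh13, Cdh23 and Pcdh15), 9 non-clustered protocadherins and the 3 Celsr genes. Together they had 47 probes, 22 genes having a single probe and 9 having several, and the probe with the highest median over all fractions stood for its gene.

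The data were 34 single-colour Agilent arrays, one for each fraction of the brains of 3 male C57BL/6J mice, all untreated as far as the labels say. One brain was cut into 15 coronal fractions, another into 8 horizontal fractions and the last into 11 sagittal fractions, each 500 μm thick except sagittal fractions 1 and 11, which pooled 2 cuts and are labelled 1000 μm. Each series is therefore a single mouse, so series and mouse cannot be told apart, and a p-value below measures only the spread between fractions of a block within a single brain. The arrays lay on 5 slides, and between 29598 and 37091 of 59305 spots per array were well above background.

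Classical cadherins bind the same or a related cadherin on a neighbouring cell and are anchored inside the cell by catenins. In the developing brain, cells of different nuclei, layers and fibre tracts carry different combinations of type II cadherins and of non-clustered protocadherins, which have long been used as markers of brain divisions. Celsr proteins are large cadherins of the planar cell polarity pathway, which orients cilia and growing axons.

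Values are log2 normalized signal, the log2 of a probe's signal less the log2 of the 75th percentile of its array, so that 0 is the level of the 75th percentile. Probes bind with different strength, so levels are compared between fractions and never between genes. A fraction holds many cell types, and fewer cells of a type cannot be told apart from less RNA per cell.

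The labels do not say at which end a count of fractions starts, so the ends were read from marker genes of brain regions. Means of the marker lists of cerebellum and of medulla and pons were highest in coronal fractions 1 and 2, that of the midbrain list in fraction 6, those of thalamus and hypothalamus in fraction 8, that of striatum in fraction 11 and that of cortex and hippocampus in fraction 13. All 6 olfactory bulb markers were highest within 1 fraction of coronal fraction 15 and all 6 striatal ones within 1 of their list's peak, but for cerebellum, midbrain and thalamus this held for 3 of 6 markers each. In the horizontal series the cortex and hippocampus list was highest in fraction 2 and the hypothalamus list in fraction 8. In the sagittal series the hypothalamus, thalamus and cerebellum lists were highest in fraction 6 and the cortex and hippocampus list in fraction 1. The midbrain and olfactory bulb lists were highest in fraction 5 and that of medulla and pons in fraction 9. Within 1 fraction of 6 lay the peaks of 4 of 7 hypothalamus, 4 of 6 thalamus and 3 of 6 cerebellum markers. Fraction 6 was taken as the middle, which the labels do not state.

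Promoter sequences are shown for 4 members, Cdh7, Pcdh15, Pcdh17 and Pcdh9, because they form the 3 pairs with the most similar profiles described below. Each runs from 250 bases before to 50 bases after a start site in RefSeq on GRCm38.p6, and where a gene has several starts the one with the lowest coordinate is given. Capitals mark matches on either strand, none of which overlap here. The first motif searched was CACCTG, an E-box of the kind bound by Snail factors. The second, a GC box that Sp factors are known to bind, was GGGCGG. The last, the TATA box found upstream of some start sites, was TATAAA.
Cdh7, chr1:109982650-109982949, plus strand: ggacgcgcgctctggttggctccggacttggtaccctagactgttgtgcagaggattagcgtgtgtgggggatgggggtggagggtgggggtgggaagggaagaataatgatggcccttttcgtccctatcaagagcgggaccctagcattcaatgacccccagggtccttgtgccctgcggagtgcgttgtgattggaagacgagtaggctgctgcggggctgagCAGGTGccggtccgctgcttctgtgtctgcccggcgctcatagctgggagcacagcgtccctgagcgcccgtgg
Pcdh15, chr10:73821617-73821916, plus strand: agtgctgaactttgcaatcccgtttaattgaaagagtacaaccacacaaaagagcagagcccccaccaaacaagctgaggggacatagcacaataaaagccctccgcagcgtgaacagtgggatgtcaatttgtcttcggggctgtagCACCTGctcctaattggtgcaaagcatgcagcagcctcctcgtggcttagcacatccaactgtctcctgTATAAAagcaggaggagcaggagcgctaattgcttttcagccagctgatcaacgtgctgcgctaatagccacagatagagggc
Pcdh17, chr14:84443313-84443612, plus strand: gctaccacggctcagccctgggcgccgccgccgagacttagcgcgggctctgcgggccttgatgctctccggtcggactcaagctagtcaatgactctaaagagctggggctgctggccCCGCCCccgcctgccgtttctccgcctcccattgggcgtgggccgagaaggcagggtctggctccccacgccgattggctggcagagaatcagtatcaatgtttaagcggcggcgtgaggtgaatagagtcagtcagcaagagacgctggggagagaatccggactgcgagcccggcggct
Pcdh9, chr14:93890620-93890919, minus strand: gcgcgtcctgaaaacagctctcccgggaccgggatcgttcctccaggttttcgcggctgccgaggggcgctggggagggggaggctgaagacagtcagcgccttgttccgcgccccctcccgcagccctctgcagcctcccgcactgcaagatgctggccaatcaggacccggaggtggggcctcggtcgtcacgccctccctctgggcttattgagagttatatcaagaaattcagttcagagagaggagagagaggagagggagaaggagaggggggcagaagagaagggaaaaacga

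Among 32851 RefSeq promoters of this length, CACCTG or its reverse complement was present in 20.2%, GGGCGG in 35.7% and TATAAA in 13.6%. Of the printed promoters, those of Cdh7 and Pcdh15 each held 1 E-box, that of Pcdh15 also held TATAAA, that of Pcdh17 held 1 GC box, and that of Pcdh9 held none of the 3 motifs. CpG dinucleotides numbered 18 in the Cdh7 promoter, 8 in that of Pcdh15, 26 in that of Pcdh17 and 19 in that of Pcdh9, against a median of 7 over all promoters. The members with similar profiles thus shared none of the searched motifs across all 4 promoters. The table held promoters for 22 of the 31 members.

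Most members were detected throughout. The probe of 28 members was well above background in all 34 fractions, that of Cdh3 in 33 and that of Cdh23, a cadherin of sensory hair cells, in 7. Cdh19, a cadherin of Schwann cell precursors and related glia, was well above background in coronal fraction 15 alone, where its signal was -3.65. Elsewhere in the coronal series the Cdh19 probe read between -7.42 and -5.70. The mean of a list of 6 Schwann and olfactory ensheathing cell markers was also highest in coronal fraction 15, and its part in the Cdh19 signal was not tested. Cdh19 was left out of the tests because it was not detected in the other 2 series, and 30 members were tested among 34186 probes.

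Over the 34 fractions the 30 tested members had a median range of 1.82 log2, against 1.36 for all tested probes, and a median SD of 0.44 against 0.31. The coronal axis gave the members' widest ranges, from 0.83 to 5.47 with a median of 1.42, against 1.17 for all tested probes. The horizontal ranges had a median of 0.98 and the sagittal ranges one of 0.77, against 0.79 and 0.71 for all tested probes. Means of the 3 series differed for a member by a median of 0.28, and the widest gap was 0.60, for Pcdh19.

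**Figure D1:**
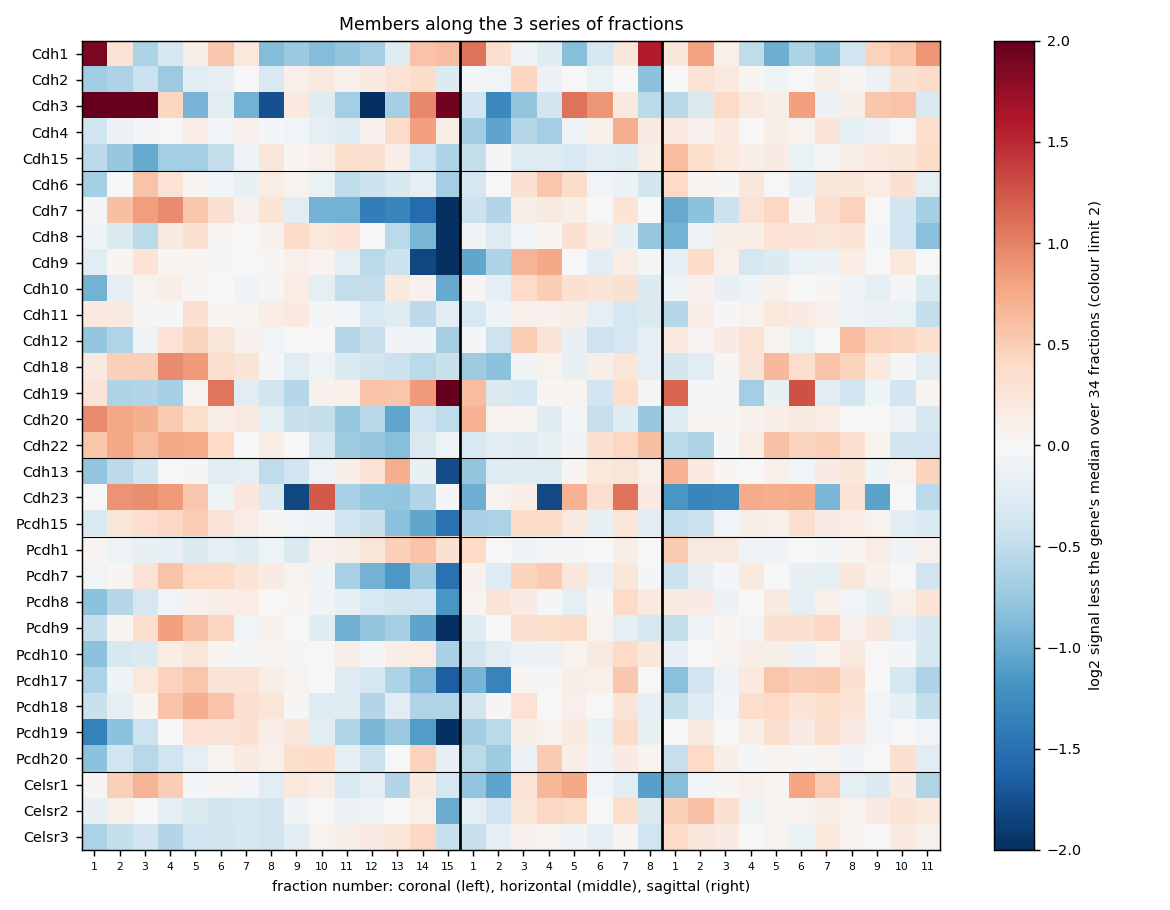
Each row is a member, grouped by subfamily (lines), and each column a fraction of the coronal (left), horizontal (middle) or sagittal (right) series. Colour is the log2 normalized signal less the gene's median over 34 fractions, and 13 of the 30 tested members had their lowest coronal value in fraction 15.

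For testing, neighbouring fractions were joined into position blocks (coronal 1-3, 4-6, 7-9, 10-12 and 13-15, horizontal 1-3, 4-5 and 6-8, sagittal medial 5-7, intermediate 3, 4, 8 and 9, and lateral 1, 2, 10 and 11). Each coronal block was set against the mean of the other 4 with limma, with Benjamini-Hochberg adjustment over all tested probes and a call at adjusted p under 0.05. A moderated F test called a difference among the coronal blocks for 20 of 30 members, where 40% of all tested probes were called. Over the 8 comparisons together, 11 of 30 members were called with at least a 2-fold difference somewhere, against 11.6% of all tested probes. Coronal fractions 1 to 8 lay on one slide and fractions 9 to 11 and 13 to 15 on another, with fraction 12 on yet another, so that a slide effect and position are partly confounded. With slide as a fixed block the F test called 2 members, and the share of all tested probes there was not counted. Among fractions of a single slide, 37 of the 38 differences called in the coronal comparisons had the same direction and 20 were without overlap. The exception in direction was Cdh7 in block 10-12. These fractions are among those that gave the calls, so agreement was largely fixed by that choice. The share over all probes was not counted. At the step from fraction 8 to 9, where the first of these slides gave way to the next, the members moved by a median of 0.14 in size. All tested probes also moved by 0.14 there, and the members by 0.08 to 0.63 at the other 13 steps. Those include the steps into and out of fraction 12, which also changed slide. A step between single arrays cannot separate slide from position.

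Of the 5 type I cadherins, 1 was higher and 2 lower in coronal block 1-3 (7.66% and 12.3% of all tested probes). Cdh3 (P-cadherin), a cadherin of epithelia and pigmented layers, read -0.54, -1.25 and -1.19 in coronal fractions 1, 2 and 3. The other 12 coronal fractions lay between -6.01 and -1.30 with a median of -3.69. Fractions 1 to 3 were thus all above the rest, and the next highest values stood at the opposite end, -1.30 in fraction 15 and -2.28 in fraction 14. The lowest value, in fraction 12, was not well above background. Block 1-3 was 2.64 ± 0.59 (SE) above the others, a 6.22-fold difference (limma adjusted p = 0.00953), and 3.35 with slide as a block (adjusted p = 0.0357). In the horizontal series Cdh3 was highest in fraction 5 (-2.15) and lowest in fraction 2 (-4.53), and over those 8 fractions it followed the choroid plexus marker mean with r = 0.89, and over the 15 coronal fractions with r = 0.07.

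Cdh1 (E-cadherin), the main cadherin of epithelia, had its highest coronal value, -0.06, in fraction 1. It read -2.57 in fraction 3 and -1.41 in fraction 6, lay between -2.82 and -2.61 in fractions 8 to 12 and stood at -1.32 in fraction 15. This profile, high at both ends and in fraction 6, was not called for any coronal block (block 1-3, 0.71 ± 0.41, limma adjusted p = 0.244). In the horizontal series Cdh1 was highest in the outer fractions, -0.86 in fraction 1 and -0.37 in fraction 8, and lowest in fraction 5 at -2.80.

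Along the sagittal axis the medial fractions 5 to 7 of Cdh1 read -2.92, -2.59 and -2.77, and the lateral fractions 1, 2, 10 and 11 read -1.72, -1.14, -1.40 and -1.07. The groups did not overlap. Medial was below lateral by 1.43 log2 (-1.43 ± 0.24, 2.69-fold, limma adjusted p = 0.00471). With slide as a block the difference was -1.62, and there the single array of fraction 2 stood for the lateral block. The mean of 6 markers of meninges and fibroblasts, all detected in every fraction, moved with Cdh1, with r = 0.87 over 34 fractions, 0.83 over the coronal, 0.97 over the horizontal and 0.85 over the sagittal ones. That mean was 0.25 in the lateral and -0.46 in the medial block, on a log2 scale centred on each gene, and its part in the Cdh1 difference was not tested.

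Cdh2 (N-cadherin), the general cadherin of neural progenitors and neurons, rose towards the higher coronal numbers. It read 4.74, 4.81 and 5.01 in fractions 1 to 3, against a range of 4.70 to 5.80 and a median of 5.48 in the other 12. The ranges overlapped through fraction 4, and the difference of block 1-3 was -0.54 ± 0.15 (limma adjusted p = 0.0266), or -0.39 with slide as a block (adjusted p = 0.417). Cdh4 (R-cadherin, first described in retina) was highest in coronal fraction 14 (4.38), with 3.94 in fraction 13 and 3.70 in fraction 15. Its other 12 coronal fractions lay between 3.16 and 3.70, and block 13-15 was 0.51 ± 0.13 above them (adjusted p = 0.0151), 0.59 with slide as a block (adjusted p = 0.158).

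Cdh15 (M-cadherin), best known from skeletal muscle precursors, was lower in coronal block 1-3 and in medial sagittal fractions. Block 1-3 (-0.20, -0.43 and -0.69) was lower by 0.61 (-0.61 ± 0.15, limma adjusted p = 0.0134), and block 10-12 (0.43, 0.67 and 0.64) was higher by 0.66 ± 0.15 (adjusted p = 0.0198). In the sagittal series its medial fractions read 0.49, 0.18 and 0.34 and its 4 lateral fractions 0.55 to 0.94, without overlap (-0.38 ± 0.10, adjusted p = 0.0368). In the fit with slide as a block the adjusted p of these 3 differences ran from 0.202 to 0.776. The mean of 6 skeletal muscle markers correlated with Cdh15 at r = -0.03 over the 34 fractions and was highest in coronal fraction 6, and of these markers Ckm and Myog were detected in 4 fractions each and Chrng in 1.

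Among type II cadherins, which sort neurons into nuclei and layers, 10 of 11 were tested. In coronal block 1-3, 3 of the 10 were higher and 0 lower, where 7.66% and 12.3% of all tested probes were. In block 4-6, 4 were higher and 0 lower, against 5.24% and 6.3%, and in block 13-15 the count was 0 higher and 7 lower, against 14.7% and 11.5%.

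Cdh20 was highest in the first coronal fraction and declined from there to fraction 13. Fractions 1 to 3 read -0.91, -1.08 and -1.15, and the other 12 lay between -2.90 and -1.34 with a median of -2.27, so the groups did not overlap. Block 1-3 was 1.07 ± 0.15 above the others (2.11-fold, limma adjusted p = 0.000711), and 0.82 above them with slide as a block (adjusted p = 0.0898). Within the slide that held fractions 1 to 8 the difference was 0.61 without overlap. The horizontal series placed its highest value in fraction 1 (-1.17) and its lowest in fraction 8 (-2.62).

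Cdh7 was highest in coronal fraction 4 and lowest at the olfactory end. Fractions 4 to 6 read 0.76, 0.37 and 0.13 and fractions 13 to 15 read -1.48, -1.72 and -2.31. Fractions 2 and 3 were within the first range, and fraction 12 (-1.57) lay within the last. Block 4-6 was 1.16 ± 0.21 above the others (2.23-fold, limma adjusted p = 0.01), but the adjusted p was 0.0742 without fraction 4 and 0.0688 without fraction 5. Block 13-15 was lower by 1.66 (-1.66 ± 0.21, 3.17-fold, adjusted p = 0.000415). With slide as a block the differences were 0.89 (adjusted p = 0.421) and -1.43 (adjusted p = 0.0701). Within one slide they were 0.24, with overlap, and -0.95, without it.

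Cdh22 and Cdh18 shared part of this course. Cdh22 lay between 3.31 and 3.68 in fractions 1 to 6 and between 2.07 and 2.63 in fractions 10 to 14. It was called higher in blocks 1-3 (0.73 ± 0.15) and 4-6 (0.71 ± 0.15) and lower in blocks 10-12 (-0.83 ± 0.15) and 13-15 (-0.59 ± 0.15), with limma adjusted p between 0.00507 and 0.0149, and with slide as a block none of the 4 was called (adjusted p of 0.16 to 0.754). Cdh18 read -0.80, -0.90 and -1.41 in fractions 4 to 6, against -2.28 to -1.27 in the other 12. Its block 4-6 was 0.80 ± 0.13 higher (adjusted p = 0.00869) and its block 13-15, at -2.17, -2.28 and -2.19, lay below all other fractions (-0.68 ± 0.13, adjusted p = 0.00452).

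Cdh8 and Cdh9 were lowest in the last coronal fractions. Cdh8, a cadherin of cortical and thalamic circuits, read 0.09, -0.28 and -1.44 in fractions 13 to 15. The other 12 fractions lay between 0.09 and 1.01 with a median of 0.70, so that only fractions 14 and 15 stood clearly apart. The difference was -1.23 ± 0.24 (limma adjusted p = 0.00395), or -0.78 without fraction 15. Cdh9 lay between -1.38 and -0.57 in coronal fractions 1 to 12 and read -1.26, -2.66 and -3.44 in fractions 13 to 15, so fraction 13 was within the range of the rest. Its difference was -1.58 ± 0.31 (2.99-fold, adjusted p = 0.00432). Fitted with slide as a block, the differences of Cdh8 and Cdh9 were -1.48 and -1.68, with adjusted p of 0.0958 and 0.128.

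Of the remaining type II genes, Cdh12 was higher in block 4-6 (0.32 to 0.52, against a highest value of 0.15 elsewhere, 0.60 ± 0.17, limma adjusted p = 0.0382), and Cdh11 was lower in block 13-15 by 0.39 (-0.39 ± 0.10, adjusted p = 0.0158). Cdh6 and Cdh10 passed no comparison. Cdh10 had the smallest sagittal range of the tested members, 0.37 log2.

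**Figure D2:**
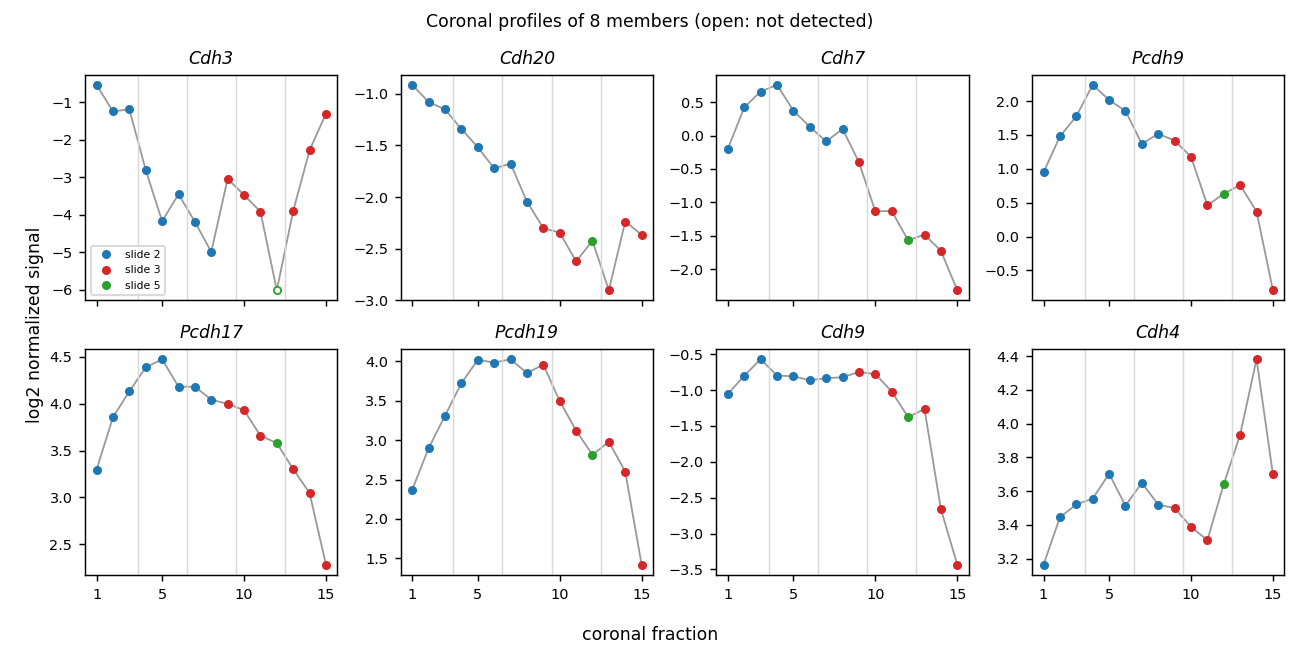
Log2 normalized signal of 8 members is plotted against coronal fraction, with a panel for each gene, colours for the slide and open symbols for a fraction not well above background. Cdh3 and Cdh20 are highest in fraction 1, Cdh7, Pcdh9 and Pcdh17 in fraction 4 or 5, and Cdh4 in fraction 14, and Cdh7, Pcdh9, Pcdh17, Pcdh19 and Cdh9 have their lowest coronal value in fraction 15.

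Read against all probes, the counts of members were uneven. In coronal block 1-3, 4 of 30 members were higher and 4 lower, where 7.66% of all tested probes were higher and 12.3% lower, and leaving out 1 fraction gave from 0 to 9 lower. Block 4-6 had 9 members higher and 1 lower, against 5.24% and 6.3%, and leaving out fraction 4 or fraction 5 left 1 or 0 higher. In block 7-9 none was called, against 0.556% higher and 0.322% lower, although 7 members were higher and 1 lower at an unadjusted limma p under 0.05, and without fraction 13 it had 3 members higher. Block 10-12 had 1 member higher and 3 lower, against 6.49% and 3.42%. Block 13-15 had 2 members higher and 14 lower, against 14.7% and 11.5%. The median difference of the members in block 13-15 was -0.37, against 0.07 for all tested probes, and in block 4-6 it was 0.34 against -0.06. With slide as a block 1 member, Cdh3, was called in these coronal comparisons. The share of all tested probes called in that fit, or with a fraction left out, was not counted.

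The 9 non-clustered protocadherins, whose extracellular parts bind like proteins on facing membranes, were all tested. In block 4-6, 4 of the 9 were higher and 1 lower (5.24% and 6.3% of all tested probes), and in block 13-15, 1 was higher and 6 lower (14.7% and 11.5%). Pcdh9, Pcdh17, Pcdh7, Pcdh18 and Pcdh19 all had their highest coronal value in fractions 4 to 7 and were lower in block 13-15. Pcdh9 read 2.24, 2.02 and 1.85 in fractions 4 to 6, above all other 12 fractions, which lay between -0.79 and 1.78. Its fractions 13 to 15 read 0.76, 0.37 and -0.79, and fractions 11 and 12 (0.46 and 0.63) lay within that range. Block 4-6 was 1.11 ± 0.27 higher (limma adjusted p = 0.0244), a call that was lost on leaving out any of fractions 4, 5 or 6 (adjusted p of 0.122, 0.11 and 0.058). Block 13-15 was lower by 1.30 (-1.30 ± 0.27, adjusted p = 0.00576), or -0.84 without fraction 15 (adjusted p = 0.0248).

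Pcdh17, found on neurons of the circuits between cortex and basal ganglia, read 4.39, 4.47 and 4.18 in fractions 4 to 6 and 3.30, 3.05 and 2.28 in fractions 13 to 15. Fraction 7 (4.18) was level with fraction 6 and fraction 1 (3.30) with fraction 13, and all other fractions lay between the groups. The differences were 0.74 ± 0.20 (limma adjusted p = 0.0347) and -1.10 ± 0.20 (adjusted p = 0.00281). Pcdh7 read 0.60, 0.42 and 0.42 in fractions 4 to 6 and -1.13, -0.69 and -1.47 in fractions 13 to 15, with differences of 0.81 ± 0.17 (adjusted p = 0.0166) and -1.16 ± 0.17 (adjusted p = 0.00104). Its fraction 12 lay within the last range, and its block 10-12 had a mean of -0.54. Pcdh19, a gene of the X chromosome known from an epilepsy of infancy, lay between 3.72 and 4.02 in fractions 4 to 9 and was low at both ends. It read 2.37 in fraction 1 and 2.98, 2.60 and 1.42 in fractions 13 to 15 (-1.13 ± 0.27, adjusted p = 0.0114), and without fraction 15 the difference was -0.67 (adjusted p = 0.0566). Fraction 12, like fraction 1, lay within the range of fractions 13 to 15.

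Pcdh18 was above all other coronal fractions in block 4-6 (2.46, 2.62 and 2.47, against at most 2.22), a difference of 0.83 ± 0.13 (limma adjusted p = 0.00644), and was lower by 0.54 in block 13-15 (-0.54 ± 0.13, adjusted p = 0.00943). Pcdh8, also called arcadlin and induced by neuronal activity, was lower by 0.48 in block 13-15 (-0.48 ± 0.15, adjusted p = 0.0376). It was low at both ends, with means of 2.54 in block 1-3, which was not called, and 2.48 in block 13-15. The blocks between had means of 2.94 to 3.18. Pcdh10 and Pcdh20 were lower in block 1-3, by 0.49 (-0.49 ± 0.16, adjusted p = 0.0483) and 0.60 (-0.60 ± 0.17, adjusted p = 0.0309). The only non-clustered protocadherin among the members called higher at the olfactory end was Pcdh1. It read 0.95, 1.04 and 0.77 in fractions 13 to 15, all above the highest other value of 0.70 (0.54 ± 0.08, adjusted p = 0.00114, and 0.63 with an adjusted p of 0.0551 with slide as a block). Among the protocadherins the slide block left adjusted p between 0.0551 and 0.317 in block 13-15, and between 0.414 and 0.463 in block 4-6.

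Pcdh15, a long cadherin of the tip links of hair cells, followed the same course as Cdh7 and Pcdh17. Its fractions 4 to 6 read -0.63, -0.53 and -0.78 and its fractions 13 to 15 read -1.87, -2.07 and -2.53, the latter all below the lowest other value of -1.49. The differences were 0.71 ± 0.15 (limma adjusted p = 0.0168) and -1.17 ± 0.15 (adjusted p = 0.000486), and -1.09 in block 13-15 with slide as a block (adjusted p = 0.0732). Of its other 5 probes, 2 were well above background in no fraction, and r with the lead probe over 34 fractions ran from -0.40 to 0.72. The other lone cadherins passed no comparison. Cdh13 (T-cadherin), which lacks the intracellular part of classical cadherins, read 5.47 in coronal fraction 13 and 2.97 in fraction 15. Cdh23 was above background in too few fractions for its levels to be ordered.

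Leaving out single coronal fractions gave between 12 and 14 members lower in block 13-15, but fraction 15 bore on the sizes. Without it the difference of Cdh8 went from -1.23 to -0.78, that of Pcdh9 from -1.30 to -0.84 and that of Pcdh19 from -1.13 to -0.67. In these 3 fractions the mean of the olfactory bulb markers was 1.15, 3.37 and 3.82, that of the Schwann and olfactory ensheathing cell markers 0.10, 1.55 and 2.27 and that of the meningeal markers -0.07, 0.90 and 1.29, on a centred log2 scale, and their part in the members' decrease was not tested. The mean of 6 neuron-wide markers in block 13-15 was 0.01. That mean had its highest coronal value, 0.26, in fraction 13 and was lower in fractions 14 and 15. Its part was not tested either. Among fractions 9 to 11 and 13 to 15, which shared a slide, all 14 members had the same direction and 10 had no overlap. These fractions took part in the calls, and the share over all probes was not counted, here or with a fraction left out.

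**Figure D3:**
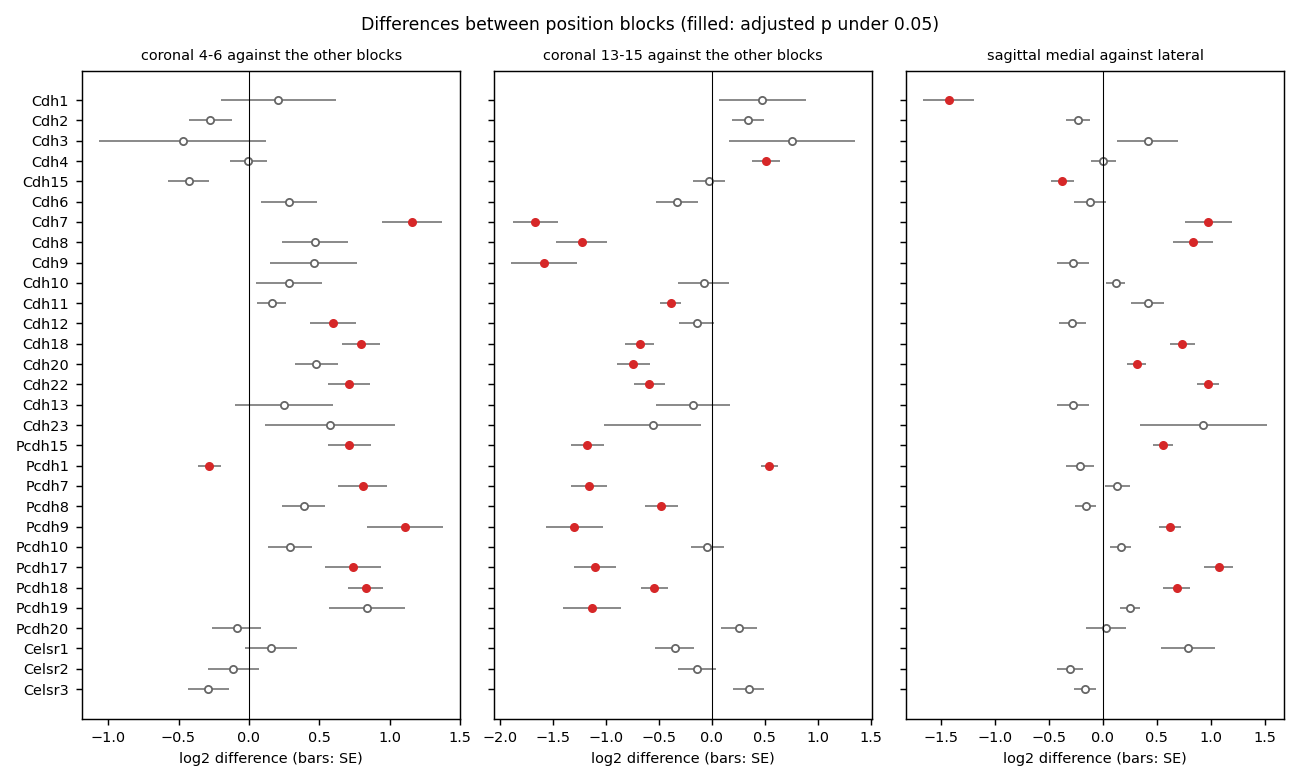
Points are log2 differences of 30 tested members for coronal block 4-6 and block 13-15 against the other coronal blocks and for the medial against the lateral sagittal block, with bars of 1 SE and filled symbols for an adjusted p under 0.05. The 9 filled points to the right in the left panel, 14 to the left in the middle panel and 9 to the right in the right panel are the members called.

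Along the sagittal axis the F test called 9 of 30 members, where 9.83% of all tested probes were called. Medial was above lateral for 9 members and below it for 2, against 7.22% and 9.42% of all tested probes. The 9 were the type II cadherins Cdh7, Cdh8, Cdh18, Cdh20 and Cdh22, the protocadherins Pcdh9, Pcdh17 and Pcdh18, and Pcdh15. None of the 9 had overlapping medial and lateral fractions. They were called on these same fractions, and the share of all probes without overlap was not counted. The intermediate block against the others gave 0 members higher and 0 lower by limma, with 2 and 1 at an unadjusted p under 0.05, against 0.00878% and 0% of all tested probes.

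Pcdh17 had the largest medial excess in this fit, but not with slide as a block. Its medial fractions read 4.48, 4.42 and 4.46 and its lateral fractions 3.09, 3.54, 3.57 and 3.30, so that the medial fractions were 1.07 ± 0.13 higher (2.10-fold, limma adjusted p = 0.0017). The intermediate fractions, at 3.86, 4.12, 4.24 and 3.91, lay between the groups. Cdh22 read 3.50, 3.36 and 3.39 in medial and 2.38, 2.30, 2.55 and 2.54 in lateral fractions, 0.98 ± 0.10 higher (1.97-fold, adjusted p = 0.00112), and Cdh7 was higher by 0.98 ± 0.21 (adjusted p = 0.0155). With slide as a block the differences were 1.11 for Cdh22 and 0.91 for Pcdh17. Of the lateral fractions only fraction 2 shared a slide with the medial fractions, so that slide and position were nearly confounded here too. The differences with slide as a block are therefore those of fractions 5 to 7 less that single array. In that comparison all 11 called members had the same direction. Fraction 2 itself took part in those calls, so the direction was largely fixed by them.

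**Figure D4:**
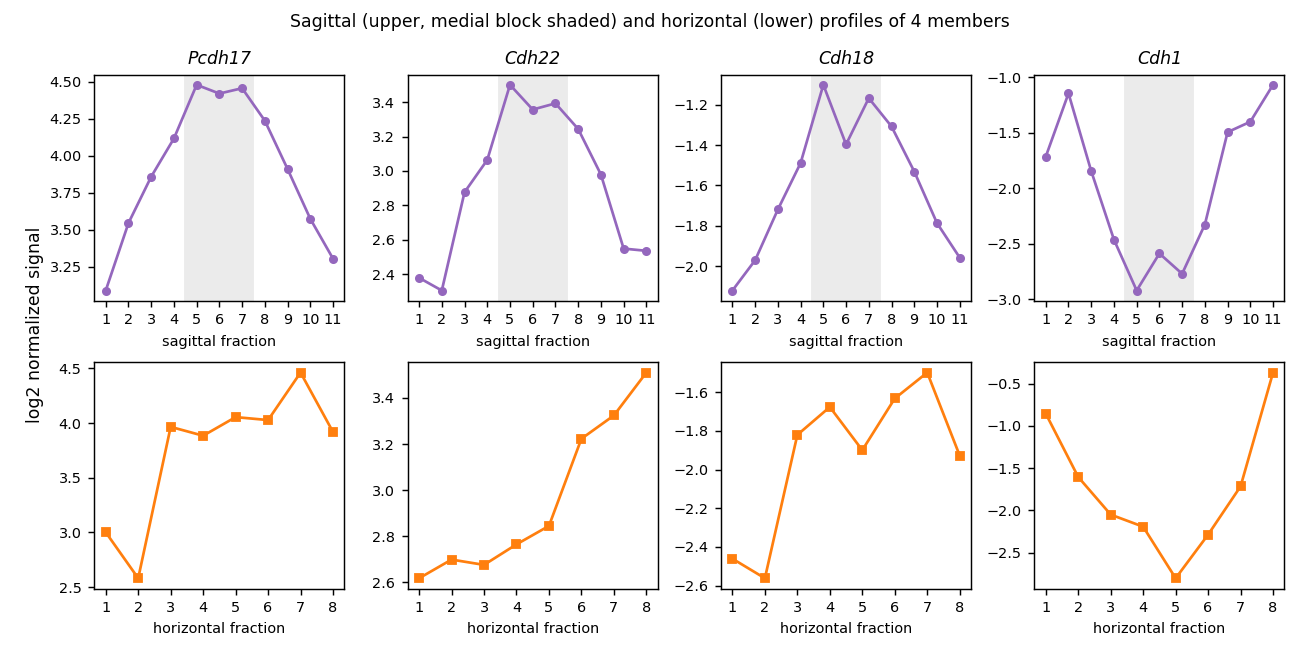
Log2 normalized signal of 4 members is plotted against sagittal fraction (upper panels, medial block shaded) and horizontal fraction (lower panels). Pcdh17, Cdh22 and Cdh18 are highest in sagittal fraction 5 and Cdh1 is lowest there, and in the horizontal series Cdh22 is highest and lowest at opposite ends.

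Fractions at equal distance from the middle gave a measure of error between the sides. Over the 5 mirror pairs, whose numbers add up to 12, the SD within a pair had a median of 0.12 over the tested members, against 0.14 for all tested probes. It was lowest for Pcdh18 (0.04), with differences between sides of -0.07 to 0.08, and highest for Cdh23 (0.71), which was near background. For Pcdh17 it was 0.08 and for Cdh1 0.26, both below their medial to lateral differences. Both fractions of a mirror pair lay in the same position block, so this spread is part of that used in the fit. These genes were called on these same fractions, so that order was largely fixed by the calls.

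The horizontal F test called 0 of 30 members, with 7 at an unadjusted limma p under 0.05, and 0.00585% of all tested probes. Fractions 1-3 against 6-8 gave 0 members higher and 0 lower, against 0.231% and 0.386% of all tested probes, with 1 and 7 members at an unadjusted p under 0.05. Under a trended prior variance (limma-trend) the F test called 1 member and 2 members were lower in fractions 1-3. The share of all tested probes called under that prior was not counted. Residual degrees of freedom numbered 5 here, against 10 in the coronal and 8 in the sagittal series. In values, Cdh22 ran from 2.62 in fraction 1 to 3.51 in fraction 8, Cdh4 from 2.51 in fraction 2 to 4.28 in fraction 7, and Pcdh17 from 2.58 in fraction 2 to 4.46 in fraction 7. Celsr1 was highest in the middle, with 1.94 and 2.04 in fractions 4 and 5 against 0.19 in fraction 8.

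Few members were even. By the rule of detection in all fractions and a range below 1 log2 over all 34, 2 members were even, Cdh11 (range 0.88, between -0.94 and -0.06) and Pcdh1 (range 0.86, between 0.18 and 1.04), against 28.3% of tested probes. The other Cdh11 probe, detected in all fractions, had a range of 1.44 and would not count as even. Both lead probes were nonetheless called in coronal block 13-15, in opposite directions. Celsr3, which guides axon tracts, came next with a range of 1.05, followed by Pcdh10 with 1.22. Scaling to the array median in place of the 75th percentile left 1 even member.

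No Celsr gene was called in a block comparison, while the coronal F test called Celsr3 (limma adjusted p = 0.0384). Celsr3 read 3.29 in coronal fraction 1 and 4.34 in fraction 14, and its largest block difference was 0.41 ± 0.15 in block 10-12 (limma adjusted p = 0.0844). Celsr1, of progenitor cells, read 1.33, 2.06 and 1.78 in medial and 0.42, 1.22, 1.43 and 0.67 in lateral sagittal fractions (0.79 ± 0.25, adjusted p = 0.0587). Celsr2, of ependyma and neurons, lay between 0.62 and 1.09 in coronal fractions 1 to 14 and read -0.01 in fraction 15. Together with these, Cdh6, Cdh10, Cdh13 and Cdh23 made up the 7 tested members called in no block comparison, and 23 were called in at least 1.

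Profiles of different subfamilies could be nearly alike. As a description, the 435 pairs of tested members were compared by Pearson's r over 34 fractions, whose values share arrays, slides and position. The median was 0.25 and 11 pairs reached 0.8. The pairs most alike were Cdh7 with Pcdh15 (0.90), Pcdh15 with Pcdh17 (0.89) and Pcdh9 with Pcdh15 (0.88). Taken by axis (coronal, then horizontal, then sagittal), r was 0.93, 0.93 and 0.91 for Cdh7 with Pcdh15, 0.96, 0.83 and 0.93 for Pcdh15 with Pcdh17, and 0.95, 0.60 and 0.86 for Pcdh9 with Pcdh15. The pairs most unlike all held Pcdh1, with Pcdh15 (-0.76), Cdh7 (-0.75) and Cdh11 (-0.74).

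Neighbours in the genome were not the pairs most alike. Of members next to each other with no protein-coding gene between them, 7 pairs were found, and 6 could be compared. Their r over 34 fractions was 0.61 for Cdh8 with Cdh11, 0.58 for Cdh6 with Cdh9, 0.50 for Cdh9 with Cdh10 and also for Cdh10 with Cdh12, 0.23 for Cdh3 with Cdh1, and 0.06 for Pcdh20 with Pcdh9. Cdh3 and Cdh1, which lie side by side on chromosome 8, were both highest in coronal fraction 1 (r = 0.58 in that series) and were opposite in the horizontal series (r = -0.55).

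Probes of the same gene agreed unevenly. Of the 16 other probes of members, 5 followed the lead probe with r of at least 0.8 over 34 fractions, and r ran from -0.40 to 0.88. These 5 belonged to Cdh2 (0.86), Cdh4 (0.88), Cdh8 (0.88), Pcdh9 (0.87) and Pcdh10 (0.84). The other probe of Cdh2 gave r = 0.03 over the sagittal fractions. A further probe of Cdh4 gave 0.58 over all fractions and -0.05 over the sagittal ones. The remaining probe of Pcdh9 gave 0.35, those of Pcdh7 gave 0.69 and 0.59, that of Cdh11 gave 0.48 and that of Celsr2 gave 0.65.

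The intracellular partners were also followed. Of 12 catenins and related adaptors, 11 were tested, and none was called with a 2-fold difference in any comparison. Over the 8 comparisons 11.6% of all tested probes were. Vcl (vinculin), which links catenins to actin, was 0.65 ± 0.16 higher in coronal block 1-3 (limma adjusted p = 0.0129), and Ctnnbip1, an inhibitor of beta-catenin, was 0.58 ± 0.09 higher in block 13-15 (adjusted p = 0.00106). These were the largest called coronal differences of that list, named after their values were seen, and on the sagittal axis Arvcf, a catenin of the p120 family, was 0.43 ± 0.10 higher in medial fractions (adjusted p = 0.0162). Of 9 planar polarity partners of Celsr, all tested, block 4-6 had 3 lower (6.3% of all tested probes) and block 13-15 had 2 higher (14.7%). None of these partners was called with a 2-fold difference either. The largest differences there, likewise named after their values were seen, were those of Vangl1, lower by 0.93 in block 10-12 (-0.93 ± 0.13, adjusted p = 0.00335), and of Dvl3, lower by 0.52 in block 4-6 (-0.52 ± 0.15, adjusted p = 0.0434).

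Of 16 other genes of the cadherin superfamily, 13 were tested, and 4 were higher and 2 lower in coronal block 13-15 (14.7% and 11.5% of all tested probes), of which 3 passed 2-fold. Cdhr1, a protocadherin of photoreceptors that also marks mitral and tufted cells of the olfactory bulb, was 4.25 ± 0.46 higher there (19-fold, limma adjusted p = 0.000163) and 2.86 ± 0.38 higher in medial than lateral fractions (adjusted p = 0.00208). Fat2, a giant cadherin of cerebellar granule cells, was 1.31 ± 0.15 higher in block 1-3 (adjusted p = 0.000194). In the horizontal series Cdhr1 was the 1 gene of these lists called, lower in fractions 1-3 than 6-8 (-1.98 ± 0.30, adjusted p = 0.0487). Fat2 and Cdhr1 thus stood at the opposite coronal ends.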

How the data were processed

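Of each of 34 fractions, RNA was hybridised to a single-colour Agilent mouse array. The authors scanned the arrays with Agilent Feature Extraction 10.10.1.1 and deposited spot intensity values, background-subtracted and not scaled between arrays, with flags. A second table deposited by the authors is on the log2 scale, and 99.92% of it equalled the processed signal on that scale minus 1 constant for an array, to within 0.02. Here spots of a probe were averaged, put on the log2 scale and scaled by subtracting the 75th percentile of the array. Names came from RefSeq accessions (assembly GRCm38.p6), for 26582 of 55681 probes. The array annotation is on mm9 and its coordinates were not used. Tests took the 34186 probes, 30 members among them, for which each of the 3 series had 1 or more fractions well above background, with a separate fit per series by limma 3.58.1 in R 4.3.3 (lmFit, eBayes) and position blocks as groups. Other steps used Python 3.11.15, numpy 2.4.6, pandas 2.3.3 and matplotlib 3.10.9. The fits were tested on simulated data. Arrays give no read depth, so their number limits the precision.

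Members that passed an adjusted p of 0.05 and 1 log2 in a block comparison are described in full and the others by range and count. From the other lists the genes past both limits were counted and the largest named. The members and lists were chosen with earlier results of these data known. Alternatives were other array scalings, normexp correction of the background (offset 50), the authors' log2 table, limma-trend, other detection filters, slide as a fixed block, a mean over probes, a natural spline with 3 degrees of freedom, and leaving out fractions. Values within 1 slide were added after seeing the data.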

Additional observations from a re-analysis of the deposited data

Results flagged for a closer look

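In the horizontal series of 8 fractions and in the 5 differences between sagittal mirror pairs (higher number less lower number), 60 groups of values were searched for a single value far from the others by Dixon's test, and 4 were found. Chance flags about 1 in 20 groups. Pcdh1 read 0.86 (0.861) in horizontal fraction 1, with the next highest fraction at 0.58. Cdh6 differed by -0.60 (-0.602) between sagittal fractions 11 and 1, with the next lowest pair at 0.01. For Cdh18 the difference between fractions 7 and 5 was -0.07 (-0.066), and all other pairs were at 0.16 or more. For Pcdh9 the difference between fractions 10 and 2 was -0.09 (-0.094), and the nearest other pair was at 0.12.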

How the results depend on the processing

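No paired analysis was possible because the fraction numbers name positions on different axes in different mice and pair no samples. The slide changed the counts most. When slide entered as a fixed block, the coronal F test called 2 members, block 1-3 had 1 higher and 0 lower, blocks 4-6, 10-12 and 13-15 each had 0 higher and 0 lower, the sagittal F test called 0, and medial against lateral gave 2 higher and 0 lower. This fit also compares coronal blocks that share no slide, which it can link only through a block lying on both slides. Within that block a difference between slides is taken as a slide effect. All 49 called coronal and sagittal differences of members had the same direction in this fit. Compared directly among fractions of a single slide, 37 of the 38 coronal differences kept it. Both comparisons reused the arrays that gave those calls, so the direction was largely fixed in advance. Shares over all tested probes were not counted for this fit. No difference of a member described in full was reversed under any alternative of the processing, and 310 of 329 values stayed past the threshold, 12 of the other 19 being those with slide as a block.

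Scaling to the array median gave 1 lower in block 1-3, 0 lower in block 4-6, 1 higher in block 13-15 and 1 even member, and quantile normalization gave 2 lower in block 1-3, 1 higher in block 13-15 and 1 lower in horizontal fractions 1-3. The normexp correction gave 0 lower in block 4-6, and in the horizontal series 1 by the F test and 3 lower. Limma-trend gave 1 and 2 there, a natural spline 1 by the F test, and probes detected in all fractions of the series 1 lower. With no detection filter, 1 was lower in block 1-3, 0 in block 4-6 and 1 in medial fractions. Leaving out both pooled sagittal fractions left 2 by the F test and 1 lower. Over the coronal comparisons the median difference of all probes ran from -0.07 to 0.08, from -0.13 to 0.17 with normexp and from -0.16 to 0.24 with no detection filter. The cause was not tested. Shares of all tested probes called under these settings were not counted, so the counts cannot be read as changes particular to the members.

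Leaving out single fractions gave 16 to 22 by the coronal F test, 4 to 5 higher and 0 to 9 lower in block 1-3 (9 without fraction 15, 1, 0 and 2 without fractions 1, 2 and 3), and 0 to 11 higher and 0 to 3 lower in block 4-6 (3 lower without fraction 15, 0 lower without any 1 of 12 others). It gave 0 to 3 higher in block 7-9 (3 without fraction 13), 0 to 2 higher and 0 to 4 lower in block 10-12 (0 of both without fraction 11 or 12, 2 higher without fraction 15), and 1 to 4 higher and 12 to 14 lower in block 13-15 (1 higher without fraction 14, 4 without fraction 15). In the sagittal series it gave 6 to 10 by the F test, 6 to 11 higher and 1 to 2 lower, with 1 lower without any 1 of 8 fractions. In the horizontal series it gave 0 throughout. With a fraction left out, too, the shares of all tested probes called were not counted.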
